A study of Danio rerio with 37 samples.

Results

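GFP RNA was targeted with DjCas13d in zebrafish embryos whose labels name 10 pg of GFP, and the whole transcriptome was read in 3 knockdown libraries and 3 control libraries, 6 of the 37 libraries of the series. The libraries of each arm were taken by their titles. Each was made from total RNA of whole embryos at 6 hours post fertilization (hpf), the start of gastrulation. The knockdown arm is titled DjCas13d knockdown and the control arm DjCas13d control, and both arms carry the same GFP dose. The series' design text speaks of a miR-430 knockdown and the clearance of maternal mRNAs, whereas these titles name GFP, and the titles were followed. The labels give no strain, name neither the guide RNAs nor what the control embryos received, and do not say how many embryos went into a library or whether replicates came from separate clutches. P-values therefore measure the spread between libraries, pooled over the series in the main fits, which may be technical. The series also holds DjCas13d at 50 pg of GFP (3 libraries in each arm) and RfxCas13d, another Cas13d, at 10 pg (3 control and 2 knockdown libraries), each with controls of its own.

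Cas13d enzymes are bacterial nucleases that are steered to an RNA by a short guide and cut RNA instead of DNA. Once bound to their target, members of the family can also cut other RNAs nearby, which is called collateral cleavage. Zebrafish embryos around gastrulation replace messenger RNAs (mRNAs) laid down by the mother with their own transcripts, and injected reporters such as GFP serve as targets that the embryo itself does not need. The comparison therefore has a pair of readouts, the loss of GFP RNA and the state of every other gene.

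GFP RNA fell in each of the 3 knockdown libraries. The controls held 3309, 3180 and 3665 TPM (a length-corrected abundance relative to the library), and the knockdown libraries 31.2, 11.3 and 4.71 TPM. The arms did not overlap, and the lowest control lay far above the highest knockdown library. What remained was 0.922%, 0.334% and 0.139% of the control mean, a 108-fold, 299-fold and 719-fold reduction. The values rest on 12054, 11483 and 12998 GFP reads in the controls against 126, 43 and 20 in the knockdown libraries, so the residue in the last library has the widest counting error. On the log2(TPM + 1) scale the change was -8.01 ± 0.61 (SE, n = 3 per arm, limma over all 37 libraries, adjusted p = 1.46e-09). A two-sided exact permutation test on the 6 libraries gave p = 0.1, the smallest value that 3 against 3 allows. Knockdown replicate 3 had the least GFP RNA, and with that library alone in its arm the change was -9.21 ± 0.81 (limma adjusted p = 1.13e-07, the lone library assumed to vary like the other groups).

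The residue was compared with the other dose and with the other enzyme. With DjCas13d at 50 pg, GFP stood at 9268, 9962 and 7185 TPM in controls and 119, 33.2 and 34.7 TPM in knockdown libraries. With RfxCas13d at 10 pg it stood at 676, 4464 and 811 TPM in controls and 7.92 and 4.26 TPM in knockdown libraries. The DjCas13d controls at 10 pg lay close together, whereas 1 of the RfxCas13d controls lay well above the other two. Those 2 controls, at 676 and 811 TPM, were rich in the noncoding RNA malat1 (6848 and 6871 CPM, in reads of a gene relative to its library) and the control at 4464 TPM was not (960 CPM); the part of this in the comparison was not tested. The log2 response at 10 pg differed from that at 50 pg by -0.64 ± 0.87 (limma adjusted p = 0.694) and from that of RfxCas13d by -0.39 ± 0.92 (adjusted p = 0.813). On counts (edgeR, over the 23 libraries whose counts list GFP) the differences were -0.07 ± 0.99 (adjusted p = 0.985) and 0.94 ± 1.22 (adjusted p = 0.683). The sign of the second thus turned with the unit, the test and the set of libraries, which changed together. Without knockdown replicates 1 and 2 they were -1.84 ± 0.99 and -1.59 ± 1.03 in limma (adjusted p = 0.998 and 0.397). None of these differences passed the threshold, and SEs of this size leave room for differences of more than 2-fold either way.

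**Figure D1:**
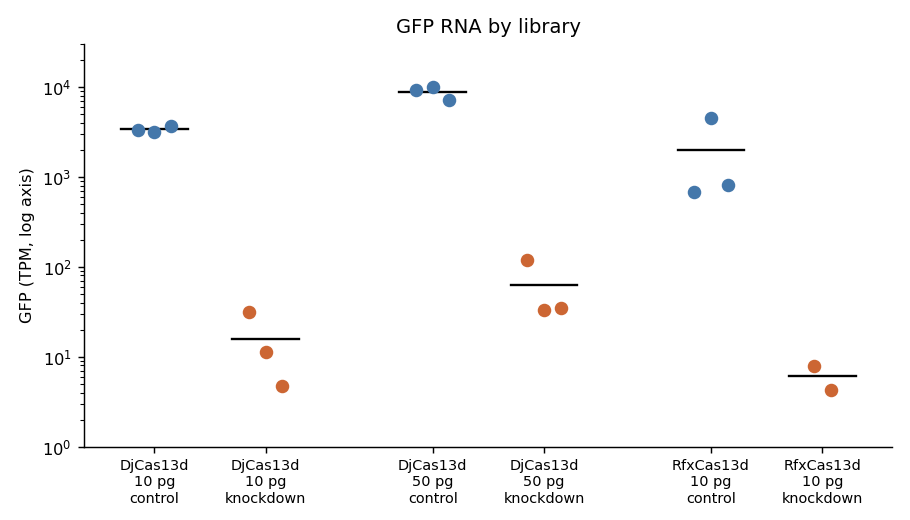
GFP RNA in TPM on a log axis, 1 point per library, with a line at each arm's mean; blue points are controls and orange points knockdown libraries. The DjCas13d 10 pg controls sit between 3180 and 3665 TPM and the knockdown libraries between 4.71 and 31.2 TPM.

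The 3 knockdown libraries did not form a uniform group in the rest of the transcriptome. The nuclear long noncoding RNA malat1 stood at 808, 1050 and 2067 CPM (reads of a gene relative to its library, on TMM-scaled library sizes) in the controls and at 5920, 6768 and 1136 CPM in the knockdown libraries. Replicates 1 and 2 were thus rich in malat1, and replicate 3 lay inside the control range. Mitochondrially encoded mRNAs followed the same order, with 1.84%, 2.14% and 2.69% of gene reads in the controls and 5.74%, 5.34% and 2.28% in the knockdown libraries. The number of genes at least 2-fold from the control mean, among 7736 genes with a mean of at least 10 CPM, was 894 in knockdown replicate 1, 971 in replicate 2 and 77 in replicate 3. Each control set against the other two gave 69, 39 and 325 such genes, so the count of replicate 3 lay within the range of the controls. Replicates 1 and 2 correlated at r = 0.985 with each other and at 0.892 and 0.895 with replicate 3, across genes, which are not independent. Replicates 1 and 2 also had the largest share of reads in entries that name no gene, 24.74% and 23.49% against 17.5%, 18.74% and 22.94% in controls and 18.96% in replicate 3, and the lowest TMM factors, 0.894 and 0.83 against 0.963 or more in the other libraries compared. Reads in genes ranged from 5945934 to 7349995, lowest in the same 2 libraries. The labels give no batch, so what sets replicates 1 and 2 apart was not tested.

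**Figure D2:**
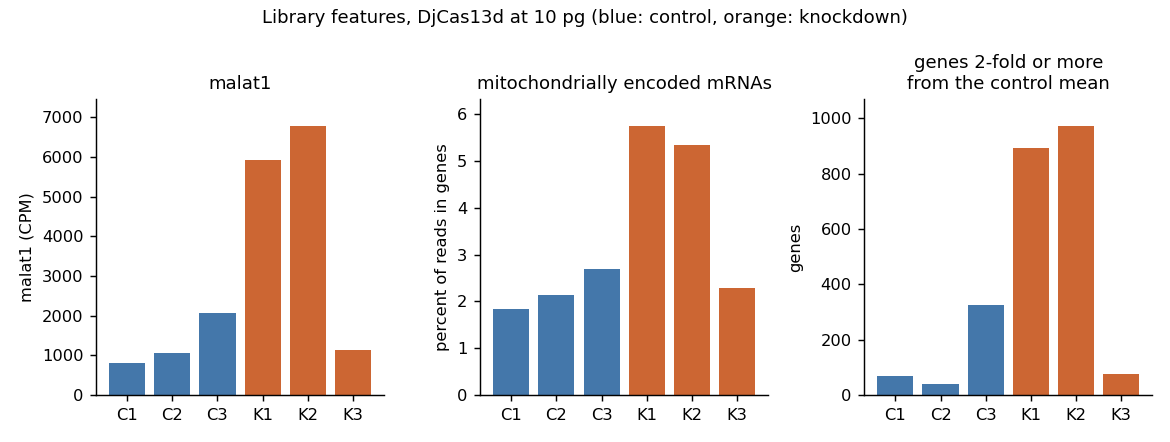
Bars give, for control libraries C1 to C3 and knockdown libraries K1 to K3, the malat1 level in CPM, the percent of gene reads in mitochondrially encoded mRNAs, and the number of genes at least 2-fold from the mean of the (other) controls. K1 and K2 are highest in all 3 panels, at 5920 and 6768 CPM for malat1, while K3, at 1136 CPM, stands with the controls.

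All libraries carried the transcripts of an early gastrula. The organizer gene gsc ranged from 33.3 to 47.6 CPM, the margin gene tbxta from 560 to 821 CPM and the enveloping layer keratin krt4 from 3605 to 7185 CPM. Other markers divided the knockdown libraries. The yolk syncytial layer gene apoa1a stood at 64.8, 75.8 and 61.9 CPM in controls and 242, 193 and 44.3 CPM in knockdown libraries. Of the other markers of that layer, apoeb went the same way (4174, 4318 and 4482 CPM against 5884, 6387 and 3595 CPM). mxtx2 did not, at 3.92, 1.43 and 7.05 CPM against 1.8, 1.82 and 9.51 CPM. For the epiblast gene sox3 the values were 384, 378 and 443 CPM against 232, 266 and 518 CPM. Of 9 markers of blood, differentiated muscle and maternal tissue, 5 were at 0 in every library, and their summed level was 0.714 to 1.25 CPM in controls and 0.744 to 1.82 CPM in knockdown libraries. In whole-embryo RNA, fewer cells of a type and less RNA per cell cannot be told apart.

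No endogenous gene passed the threshold when the 3 knockdown libraries were compared with the 3 controls. edgeR's quasi-likelihood test, with Benjamini-Hochberg adjustment over 16321 genes and a threshold of 0.05, called 0 genes (0%), although 2553 had an unadjusted p under 0.05, 1480 of them higher and 1073 lower. That split turned with the scaling, to 953 higher and 1388 lower with library size alone and to 586 higher and 2585 lower with limma on TPM. The smallest adjusted p was 0.0614. DESeq2, on the same libraries and genes, called 98 genes (0.6%), 75 higher and 23 lower. limma on log2(TPM + 1) called 4 of 18590 features (0.0215%), GFP among them. The limits on unseen changes differed with expression. The 95% interval of the log2 change lay within 2-fold either way for 7045 genes (43.2%), and for 5839 of the 7736 genes with a mean of at least 10 CPM (75.5%). These intervals rest on the spread pooled over all 37 libraries. The biological coefficient of variation was 0.253 there and 0.304 in the 6 libraries alone, so the intervals may be too narrow here. The smallest edgeR adjusted p was 0.572 with the 6 libraries alone and 0.173 with the 12 DjCas13d libraries.

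The call depended on 1 library. Without knockdown replicate 3, edgeR called 1263 genes higher (7.72%) and 1380 lower (8.44%). Leaving out any other of the 6 libraries gave 0 calls, as did leaving out knockdown replicates 1 and 2 together, with 617 genes then at an unadjusted p under 0.05. Of the genes called higher without replicate 3 and also tested with it, 642 of 1262 (50.9%) had a value in replicate 3 inside the control range. Of those called lower, 808 of 1379 (58.6%) did. The median difference from the control mean over the higher genes was 0.95, 0.99 and -0.03 in knockdown replicates 1, 2 and 3, and over the lower genes -1.14, -1.21 and 0.02, on the log2(CPM + 1) scale. Replicate 3 lay above all controls for 257 of the higher genes and below all controls for 363. For the lower genes it lay below all controls for 241 and above them for 330. By the medians, the calls without replicate 3 are mostly differences that replicates 1 and 2 showed and replicate 3 did not. Where replicate 3 lay outside the control range, it did so more often against the direction of the call than with it. The shares inside and outside the control range were not computed over all genes tested. They therefore do not set the called genes apart from other genes.

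**Figure D3:**
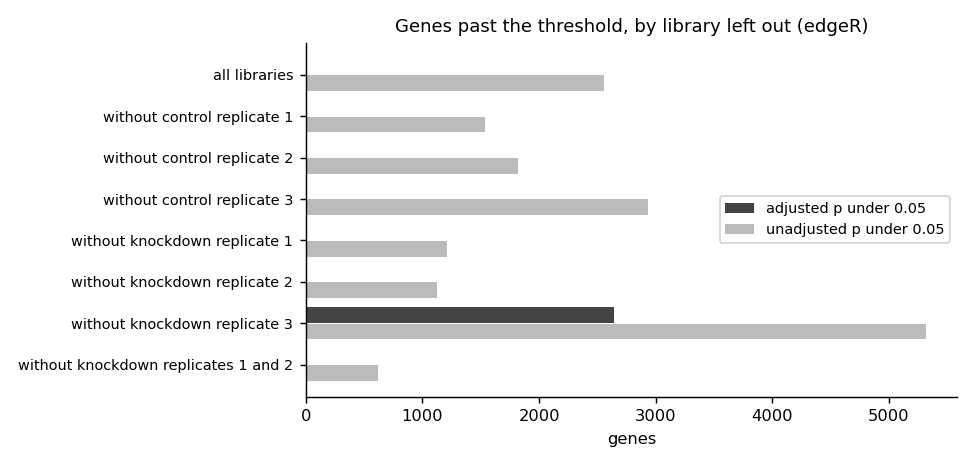
Horizontal bars count the genes past an adjusted p of 0.05 (dark) and an unadjusted p of 0.05 (light) in edgeR's test of DjCas13d knockdown against control at 10 pg, by the library left out. Dark bars are at 0 except without knockdown replicate 3, where 2643 genes passed.

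Genes that did differ alike in the 3 knockdown libraries were few. CPM values did not overlap between the arms for 926 genes higher (5.67%) and 903 lower (5.53%). With 3 against 3, a lack of overlap alone gives a two-sided exact permutation p of 0.1. These counts therefore do not set such genes apart from chance. All 3 knockdown libraries lay at least 2-fold above the control mean for 2 of the 7736 better expressed genes and at least 2-fold below it for 6. Replicates 1 and 2 together did so for 251 and 410 genes. The genes named in the rest of this paragraph were chosen after their values were seen. The 2 higher genes were s100s, a member of the S100 calcium-binding family, at 6.99, 7.14 and 5.95 CPM in controls and 15.5, 16.8 and 20.8 CPM in knockdown libraries (log2 change 1.40 ± 0.30, edgeR adjusted p = 0.138), and si:dkey-241l7.4. Of the 6 lower genes, slc14a2, named for a urea transporter, stood at 13.6, 21.6 and 20.4 CPM against 2.89, 6.49 and 6.39 CPM (-1.81 ± 0.47, adjusted p = 0.138). For ptger4b, a prostaglandin receptor gene, the values were 15.4, 19.4 and 15 CPM against 5.41, 4.87 and 7.28 CPM. The arms did not overlap for s100s, slc14a2, ptger4b or the kinase gene MAP3K21 (18 to 28.7 CPM against 5.07 to 10.5 CPM). For TIAM1, MN1 and nr6a1a, control replicate 3 lay far below the other two controls and close to the knockdown libraries.

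The endogenous genes nearest to the threshold were also chosen after their values were seen. her5, a Hairy-related transcriptional repressor, stood at 5.18, 3.57 and 3.92 CPM in controls and 11.4, 12.4 and 9.21 CPM in knockdown libraries, without overlap (log2 change 1.37 ± 0.25, edgeR adjusted p = 0.0614). It passed with RLE scaling (adjusted p = 0.0468) and with a stricter count filter (0.0387). gart, an enzyme of purine synthesis, stood at 21, 19.8 and 16.5 CPM against 83.2, 70 and 27.5 CPM (1.65 ± 0.31, adjusted p = 0.0614). ttll4, a tubulin-modifying ligase, stood at 23.5, 23.8 and 30.2 CPM against 55.9, 64.1 and 34.3 CPM (0.99 ± 0.19, adjusted p = 0.0614). All 3 knockdown values were above all controls for each gene, but for gart and ttll4 replicate 3 lay only just above them. DESeq2 called all 3, and also lft2, which encodes a secreted Nodal antagonist and is a published target of the microRNA miR-430 (16.1 to 18.7 CPM in controls against 46.6, 52.1 and 22.3 CPM; DESeq2 1.21 ± 0.28, adjusted p = 0.0134). Of its 75 higher calls, 59 (78.7%) did not overlap between the arms, nor did any of its 23 lower calls (100%). Over all genes these shares were 5.67% and 5.53%. The calls were made for a difference between the same libraries, so high shares follow from the choice. In replicate 3 the median difference from the control mean was 0.33 over the higher and -0.68 over the lower calls. Both medians lay nearer to the control mean than those of replicates 1 and 2.

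In TPM, 2 endogenous mRNAs fell and did so in every knockdown library. bckdk, the kinase that switches off branched-chain ketoacid breakdown, stood at 177, 176 and 207 TPM in controls and 106, 109 and 99.3 TPM in knockdown libraries (limma on log2(TPM + 1), -0.82 ± 0.14, adjusted p = 0.0157). zmpste24, the protease that matures prelamin A, stood at 70.8, 62.4 and 75.8 TPM against 37.1, 34.4 and 36.9 TPM (limma -0.93 ± 0.15, adjusted p = 0.00491). In TPM both genes separated the arms, and replicate 3 lay with replicates 1 and 2. In counts the arms also did not overlap, but bckdk, at 327, 330 and 412 CPM in controls and 265, 299 and 193 CPM in knockdown libraries, had replicates 1 and 2 nearer to the controls. The programs behind the deposited TPM and counts were not given, and why the units differ was not tested. TPM were not TMM-scaled. The median log2 change over all features was -0.157 with limma on TPM and -0.00 with edgeR on counts. edgeR's values, -0.50 ± 0.17 (adjusted p = 0.198) for bckdk and -0.65 ± 0.16 (adjusted p = 0.138) for zmpste24, did not pass. DESeq2, on the same counts, called zmpste24 (-0.63 ± 0.16, adjusted p = 0.021) but not bckdk. For zmpste24 the call thus differed between tests on counts as well. The fourth limma call, lenep, was listed at 0 TPM in the 3 controls and at 1.59, 1.59 and 0.75 TPM in the knockdown libraries, and was too low for the count test.

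The same genes can be read in the other comparisons, which share no library with this one. As background, edgeR called 0.00613% of genes lower with DjCas13d at 50 pg and 6.98% lower with RfxCas13d at 10 pg, and limma 0.0215% and 3.42%. At 50 pg of GFP, bckdk stood at 161, 174 and 194 TPM in DjCas13d controls and 98.6, 96.1 and 92.5 TPM in knockdown libraries, and fell in both tests (edgeR -1.08 ± 0.17, adjusted p = 0.00561; limma -0.87 ± 0.14, adjusted p = 0.013). With RfxCas13d at 10 pg it stood at 169, 220 and 145 TPM in controls and 142 and 145 TPM in knockdown libraries, where edgeR called it lower (-0.72 ± 0.19, adjusted p = 0.0147) and limma did not (-0.28 ± 0.16, adjusted p = 0.228). For zmpste24 at 50 pg, controls held 57, 66.6 and 62.5 TPM and knockdown libraries 39.8, 41.6 and 37 TPM. Neither test called it there (edgeR -0.84 ± 0.16, adjusted p = 0.106, limma -0.64 ± 0.15, adjusted p = 0.116). With RfxCas13d at 10 pg, zmpste24 fell in both tests (edgeR -0.87 ± 0.19, adjusted p = 0.00454; limma -0.48 ± 0.17, adjusted p = 0.0463). RfxCas13d control replicates 1 and 3 were rich in malat1 (6848 and 6871 CPM) and its knockdown libraries were not (737 and 850 CPM). Without control replicates 1 and 3 only control replicate 2 remains in that arm. The part of the malat1-rich controls in the RfxCas13d calls of both genes therefore cannot be told apart.

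**Figure D4:**
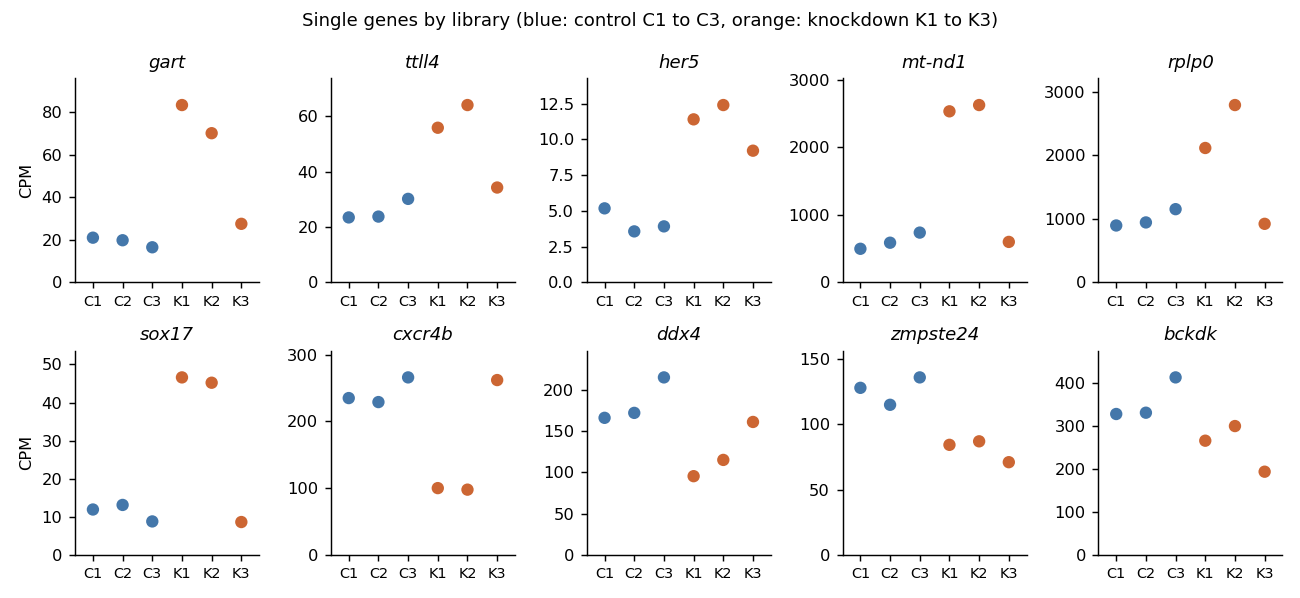
CPM on linear axes from 0 for 10 genes, 1 point per library (controls C1 to C3, knockdown K1 to K3). In gart, mt-nd1, rplp0 and sox17 the points K1 and K2 stand above the controls and K3 near them, in cxcr4b and ddx4 K1 and K2 stand below, and in zmpste24 and bckdk all 3 knockdown points lie below all controls.

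Gene lists were then described by role. With all 6 libraries no member of any of the 39 lists with a tested gene passed edgeR's threshold, the smallest adjusted p over 1532 listed genes being that of her5. The lists are therefore given by their median log2 change, beside -0.00 over all genes tested, and by their medians in single libraries on the log2(CPM + 1) scale. DESeq2 did call some listed genes, her5 and lft2 among them. Of those named below it called dgcr8 (DESeq2 adjusted p = 0.0375), dhx38 (0.0202) and eif5b (0.0319).

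Mitochondrially encoded mRNAs and cytosolic ribosomal protein genes differed widely between knockdown replicates. The 13 mitochondrially encoded mRNAs had a median change of 1.18, with medians of 1.55, 1.60 and -0.00 in knockdown replicates 1, 2 and 3 and of -0.22, -0.09 and 0.31 in the controls. mt-nd1, a subunit of complex I, stood at 499, 589 and 739 CPM in controls and at 2536, 2629 and 601 CPM in knockdown libraries (1.66 ± 0.50, edgeR adjusted p = 0.192). Of the 82 cytosolic ribosomal protein genes, the median change was 0.56, with library medians of 0.63, 0.96 and -0.06. rplp0, a protein of the ribosomal stalk, stood at 897, 945 and 1154 CPM against 2117, 2793 and 923 CPM (0.96 ± 0.29, adjusted p = 0.192). Replicate 3 lay at the control level for both lists. Without it 12 of 13 mitochondrially encoded mRNAs and 49 of 82 ribosomal protein genes passed as higher, beside 7.72% of all genes, and 0 and 1 as lower. With replicate 3 alone against the controls the list medians were -0.02 and -0.06, and no member passed.

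Nuclear-encoded partners of the mitochondrion moved less. The 75 nuclear oxidative phosphorylation genes had a median of 0.06, with library medians of 0.01, 0.21 and 0.03, and the 75 mitochondrial ribosomal protein genes one of 0.14, which was -0.10 with limma on TPM. Of the latter, 14 (18.7%) lay higher in all 3 knockdown libraries than in any control, beside 5.67% of all genes, and 0 lay lower. mrpl23 of that list stood at 12.7, 14.6 and 12.4 CPM against 18.9, 19.3 and 19.9 CPM (0.55 ± 0.18, edgeR adjusted p = 0.194). mrpl52 stood at 1.68, 3 and 4.23 CPM against 4.87, 6.49 and 5.79 CPM (0.95 ± 0.32, adjusted p = 0.198). For mrpl23 and mrpl52 replicate 3 was about as high as the other knockdown libraries. It was the lowest of them for mrpl57 (33.2, 27 and 34.6 CPM against 49.4, 53.3 and 40.4 CPM). The same held for mrps34 (32, 33.7 and 35.4 CPM against 45.5, 67.7 and 43.7 CPM). The list's library medians of 0.01, 0.27 and 0.11 were small.

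Factors that make ribosomes, start translation or process RNA mostly had medians near 0. They were 0.02 over 122 ribosome biogenesis factors, 0.11 over 51 translation factors, -0.06 over 81 spliceosome and SR protein genes, 0.04 over 66 mRNA decay factors and 0.06 over 7 BTG and TOB adaptors. Single members differed within them. nop56, a core protein of the small nucleolar particles that guide rRNA methylation, stood at 1155, 1176 and 1485 CPM against 2788, 3232 and 1198 CPM (0.92 ± 0.29, edgeR adjusted p = 0.194). eif5b, which joins the ribosomal subunits, stood at 164, 186 and 234 CPM against 430, 451 and 231 CPM (0.93 ± 0.23, adjusted p = 0.138). dhx38, a splicing helicase, stood at 183, 150 and 161 CPM against 103, 96.7 and 136 CPM (-0.56 ± 0.13, adjusted p = 0.138). Of these only dhx38 had replicate 3 outside the control range. Among 15 microRNA pathway genes the median was 0.03; dgcr8, which helps cut primary microRNAs, stood at 58.9, 56.8 and 97.8 CPM against 157, 147 and 102 CPM (0.93 ± 0.23, adjusted p = 0.138).

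Maternal and germ line transcripts gave no member called by edgeR. The median was 0.06 over 55 maternal and oocyte genes, -0.03 over 23 published targets of miR-430, the microRNA that clears maternal mRNAs, and -0.12 over 24 germ plasm and germ cell genes. In the germ cell list the library medians were -0.45, -0.50 and 0.20. ddx4, the Vasa helicase, stood at 166, 172 and 215 CPM against 95.3, 115 and 161 CPM (-0.57 ± 0.23, edgeR adjusted p = 0.255). Other germ line genes went the other way. dazap2, the member of that list with the smallest adjusted p, stood at 67, 68.1 and 81.9 CPM against 103, 105 and 90.3 CPM (0.46 ± 0.14, adjusted p = 0.194), and the germ cell marker nanos3 at 15, 19.4 and 25.9 CPM against 25.8, 37.3 and 27.6 CPM. cxcr4b, a chemokine receptor and miR-430 target, stood at 235, 229 and 266 CPM against 100, 97.7 and 262 CPM (-0.67 ± 0.26, adjusted p = 0.252). In ddx4 and cxcr4b replicates 1 and 2 lay below every control. Replicate 3 lay inside the control range for cxcr4b and just below it for ddx4.

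Of the lists of gastrula patterning genes, 4 had medians that divided by library. Dorsal organizer and axial mesoderm genes (30 tested) had library medians of 0.70, 0.69 and -0.36, and neural plate and epiblast genes (41 tested) 0.43, 0.50 and -0.31. Yolk syncytial layer and apolipoprotein genes (39 tested) had 0.44, 0.35 and -0.36, and posterior hox, cdx and retinoic acid genes (18 tested) 0.37, 0.42 and -0.37. The whole-arm medians of the 4 lists, 0.39, 0.22, 0.22 and 0.35, therefore average opposite signs, and those of the neural and yolk lists were -0.09 and -0.06 with limma on TPM. sox17, an endoderm transcription factor, stood at 11.9, 13.1 and 8.77 CPM in controls and 46.6, 45.2 and 8.61 CPM in knockdown libraries (1.56 ± 0.58, edgeR adjusted p = 0.237). frzb, a secreted Wnt antagonist, stood at 32.7, 35.1 and 31.2 CPM against 101, 124 and 25.3 CPM (1.34 ± 0.55, adjusted p = 0.264). apoa1b, an apolipoprotein, stood at 92.9, 76.2 and 73.2 CPM against 494, 403 and 37.9 CPM (1.95 ± 0.83, adjusted p = 0.27). In all 3 genes replicates 1 and 2 were several-fold above the controls and replicate 3 was below them. Other members of these lists did not follow. foxa, a forkhead factor of the axial mesoderm list, stood at 85.3, 70.7 and 89.9 CPM against 39.9, 44.8 and 73.8 CPM (-0.63 ± 0.22, adjusted p = 0.205), and sox11a, a neural plate factor, at 182, 222 and 283 CPM against 134, 131 and 169 CPM (-0.66 ± 0.18, adjusted p = 0.159). The organizer gene gsc stood at 41.4, 37.8 and 47.6 CPM against 43.1, 42 and 33.3 CPM.

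The opposite order was seen in other regional genes. grhl3, an epidermal transcription factor, stood at 184, 177 and 223 CPM against 104, 98.1 and 221 CPM (-0.46 ± 0.22, edgeR adjusted p = 0.302). bmp7a, a ventral BMP ligand, stood at 274, 272 and 326 CPM against 153, 170 and 256 CPM (-0.59 ± 0.23, adjusted p = 0.244). The pluripotency factor pou5f3 stood at 2032, 1977 and 1835 CPM against 1061, 1151 and 2164 CPM. Library medians in knockdown replicates 1, 2 and 3 were nearer to 0 in the BMP list (0.22, 0.01 and -0.18), the mesendoderm and Nodal list (0.07, 0.04 and -0.16) and the FGF list (0.03, 0.06 and -0.14). Whole-arm medians were 0.07 over 31 BMP genes, -0.00 over 52 mesendoderm and Nodal genes, 0.03 over 26 FGF genes, -0.05 over 52 Wnt genes, 0.12 over 29 non-neural ectoderm factors and 0.13 over 54 enveloping layer genes.

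**Figure D5:**
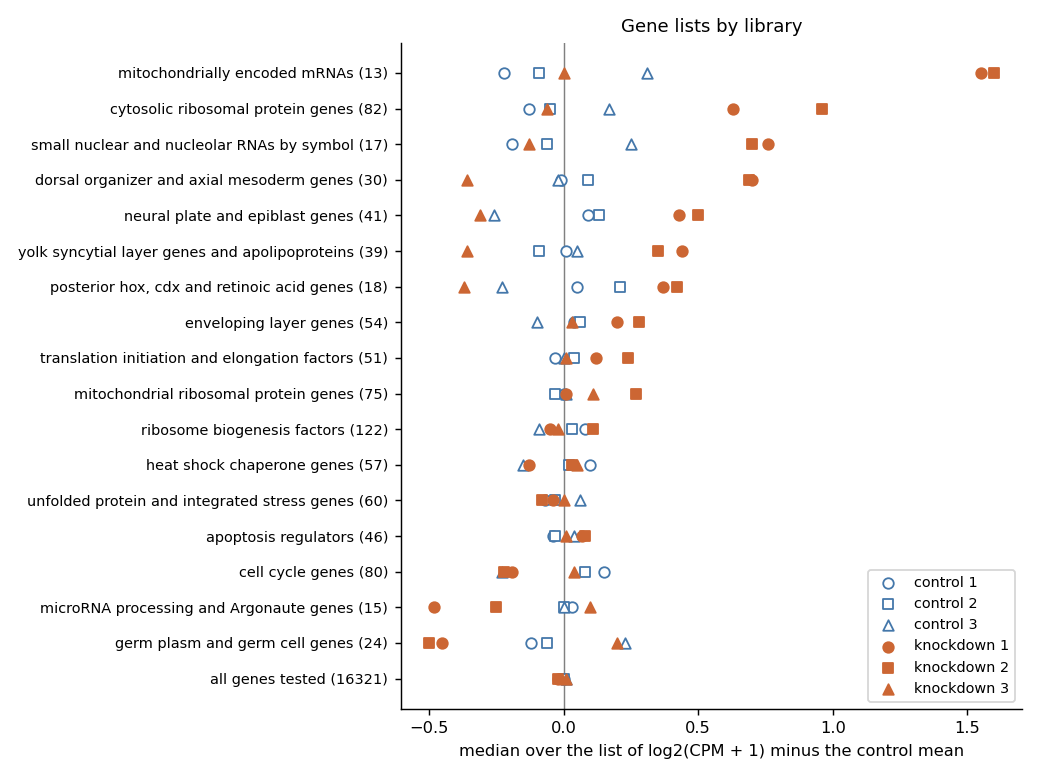
Each row is a gene list with its number of tested genes, and each symbol the median over the list of log2(CPM + 1) minus the control mean in 1 library; open blue symbols are controls and filled orange symbols knockdown libraries. Knockdown replicates 1 and 2 stand at 1.55 and 1.60 for mitochondrially encoded mRNAs and replicate 3 at 0.

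Stress and damage genes gave no member called by edgeR either. Among genes that DNA damage induces, mdm2, a ubiquitin ligase, stood at 95.5, 82.4 and 223 CPM in controls and 92.4, 109 and 118 CPM in knockdown libraries (-0.33 ± 0.33, edgeR adjusted p = 0.634). cdkn1a, a cell cycle inhibitor, stood at 4.62, 7.28 and 10 CPM against 3.25, 3.65 and 4.01 CPM (-1.0 ± 0.56, adjusted p = 0.384). The arms overlapped for mdm2, and for cdkn1a all 3 knockdown values lay below the controls. The stress transcription factors atf3 (0.20 ± 0.41, adjusted p = 0.847) and ddit3 (-0.80 ± 0.65, adjusted p = 0.544) overlapped between arms, and the heat shock gene hsp70l stayed under 1 CPM in all 6 libraries. Medians were -0.01 over 60 unfolded protein and integrated stress genes, -0.02 over 57 heat shock chaperone genes, 0.09 over 48 immediate early genes, -0.00 over 46 apoptosis regulators and 0.18 over 55 innate immunity genes. Proteasome genes (41, median -0.01) and cell cycle genes (80, median -0.08) also lacked an edgeR call with all 6 libraries. Without knockdown replicate 3, 16 of 80 cell cycle genes (20%) and 1 of 41 proteasome genes passed as lower, beside 8.44% of all genes. In each list 1 gene then passed as higher, beside 7.72% of all genes. Library medians of the cell cycle list were -0.19, -0.22 and 0.04 in knockdown replicates 1, 2 and 3.

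The response at 10 pg was set against the response to DjCas13d at 50 pg and to RfxCas13d at 10 pg. No gene passed the test of a difference from the response at 50 pg (0 of 16321, 0%), with 2877 genes at an unadjusted p under 0.05 in edgeR and 239 called by DESeq2. Without knockdown replicate 3 of the 10 pg arm, 2287 genes passed. The medians over mitochondrially encoded mRNAs and ribosomal protein genes were -0.28 and -0.55 at 50 pg, beside 1.18 and 0.56 at 10 pg.

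Between DjCas13d and RfxCas13d at 10 pg the response differed for 2410 genes (14.8%), 1165 with a more positive (7.14%) and 1245 with a more negative response (7.63%) with DjCas13d. With library size alone as scaling the split was 715 to 1605, with limma on TPM it was 544 to 3290, and with DESeq2 1556 to 1614. All 13 mitochondrially encoded mRNAs and 64 of 82 ribosomal protein genes were among the more positive, with medians of -2.0 and -0.90 under RfxCas13d. Of 57 heat shock chaperone genes 2 were among the more positive and 11 among the more negative, and of 15 microRNA pathway genes 2 and 3. Malat1-rich libraries stood in opposite arms of the 2 comparisons. In RfxCas13d controls malat1 was at 6848, 960 and 6871 CPM and in its knockdown libraries at 737 and 850 CPM. Without knockdown replicates 1 and 2 of DjCas13d 4 genes passed, and without all 5 malat1-rich libraries of the series 0 passed, with 1404 at an unadjusted p under 0.05. The enzyme and the distribution of malat1-rich libraries cannot be told apart in this difference.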

How the data were processed

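Sample titles gave the groups. TRIzol-extracted total RNA went into a strand-marking library kit, per the labels' protocols. The build danRer11 is named per the submitters' processing notes. The aligner, the read counter and how it handled strand were not given in the sources used here; values of overlapping or antisense genes, and of near-identical copies such as hsp70l, ribosomal protein, histone and small nuclear RNA genes, are therefore uncertain. The authors deposited raw counts per gene (32520 genes, whole numbers) and TPM values for each library. Entries of the count tables that name no gene held 17.5% to 24.74% of reads in the 6 libraries and were kept out. GFP was tested in TPM, since the deposited count tables list it in 23 of 37 libraries. As an alternative, its counts were fitted with edgeR over those 23 libraries.

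Counts were tested with edgeR 4.0.16 (R 4.3.3): filterByExpr on the 12 groups, TMM scaling and 1 robust quasi-likelihood fit over all 37 libraries, whose biological coefficient of variation was 0.253. For GFP, limma 3.58.1 was run on log2(TPM + 1) over features with at least 1 TPM in 2 libraries. DESeq2 1.42.0 was an alternative. Benjamini-Hochberg adjustment over all features tested was used throughout, at 0.05. A change on the log2(TPM + 1) scale is compressed for low values. CPM are TMM-scaled. Differences of responses were tested as contrasts in the same fit. The tests were checked on simulated data. Replicates of an arm differed by more than sampling noise. Of the gene IDs, 20860 carried a symbol in the authors' files and 8382 were matched in a separate name list.

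The libraries and the gene lists were chosen with earlier results of these data known. Genes are named by rule: GFP, malat1, mdm2, cdkn1a, hsp70l, atf3 and ddit3, up to 4 members of each list with the smallest adjusted p, and for differences of responses the 5 largest in each direction whose mean log2 CPM reached 1. The rule also named the largest called changes, of which there were none. Markers of tissues and genes said to be chosen after their values were seen stand outside it. Alternatives were other scalings, filters, tests, sets of libraries and a block on replicate number.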

Additional observations from a re-analysis of the deposited data

Results flagged for a closer look

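The response to knockdown at 10 pg of GFP differed between DjCas13d and RfxCas13d for 2410 genes by edgeR's test of the difference itself (adjusted p under 0.05). The 5 genes with the most positive difference and the 5 with the most negative are given here on the log2 scale. tmem179aa had a difference of 9.80 ± 2.84, at 0.42, 0.428 and 4.39 CPM in DjCas13d controls and 6.68, 10.1 and 0 CPM in knockdown libraries. Its change was 1.68 ± 0.91 with DjCas13d and -8.12 ± 2.77 with RfxCas13d. si:dkey-10f21.16 had a difference of 5.85 and the unnamed gene ENSDARG00000081475 one of 5.40. snx6, which encodes a sorting nexin, had a difference of 5.03, at 2.8, 1.71 and 3.76 CPM in controls and 8.48, 11.8 and 2.67 CPM in knockdown libraries. sncga, a synuclein gene, had one of 4.78. Among the most negative, si:ch1073-385i9.2 had a difference of -5.74, cd34 one of -5.54 and the unnamed gene ENSDARG00000109368 one of -5.34. CPEB2, named for an mRNA-binding regulator of translation, had a difference of -5.41, at 4.2, 1.57 and 1.72 CPM in controls and 0.18, 0.608 and 0.891 CPM in knockdown libraries. EMILIN2 had a difference of -5.22. All 10 genes were lowly expressed, at most 11.8 CPM in any DjCas13d 10 pg library. Malat1-rich libraries stood in opposite arms of the 2 comparisons, so the enzyme and their distribution cannot be told apart in these differences.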

How the results depend on the processing

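The fall of GFP passed under every alternative run: other pseudocounts, no filter, counts in place of TPM, and each library left out in turn (-8.66 to -7.41). The number of genes called in knockdown against control was 0 with library size alone, without malat1 and mitochondrially encoded genes, with no filter, in fits of the 6 or the 12 DjCas13d libraries alone, and without all 5 malat1-rich libraries (an alternative chosen after seeing the data). It was 1 (her5) with RLE factors and with a mean of at least 10 reads, 4 with limma on TPM and 98 with DESeq2. Leaving out each library in turn gave 0 to 2643 calls. For the difference from 50 pg, DESeq2 called 239 genes, and leaving out each library gave 0 to 2287. For the difference from RfxCas13d, 4 genes passed without knockdown replicates 1 and 2, 0 without all 5 malat1-rich libraries, and 1081 to 3883 with 1 library left out: 1081 and 1530 without control replicates 1 and 2, and 1516, 1166 and 3883 without knockdown replicates 1, 2 and 3. The cause of these moves was not tested.

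Deviations of same-numbered libraries of the 2 arms correlated at r = -0.25, -0.04 and -0.24 over genes, and those of unlike-numbered libraries at -0.35 to 0.34. The knockdown deviations mainly hold the split of replicates 1 and 2 from replicate 3. These values therefore cannot tell whether the numbers pair the libraries. With a replicate block, 0 genes passed in knockdown against control, 1 (GNPAT, -3.83) in the difference from 50 pg and 2323 in the difference from RfxCas13d, and GFP changed by -8.01. Of the named genes that each alternative could test (127 to 153 of 153), none changed direction past the threshold. None had passed in the main fit, so this says little. Without knockdown replicate 3, 104 of 152 named genes passed, beside 2643 of all 16359 genes tested. Most were named for a small adjusted p in these same data, so a high share follows from the choice. The median log2 change of all genes moved from -0.00 to -0.103 with library size alone and to -0.157 with limma on TPM, so medians under these settings are to be read against those values. With 3 libraries per arm the median SE of a log2 change was 0.36, and 0.22 for genes with a mean of at least 10 CPM.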

Other observations

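The 17 small nuclear and nucleolar RNAs tested had higher medians in the malat1-rich knockdown libraries. The medians were 0.76, 0.70 and -0.13 in knockdown replicates 1, 2 and 3, on the log2(CPM + 1) scale against the control mean. None passed edgeR's threshold, and their log2 changes ranged from -3.38 to 2.27. Most of the 643 such genes were too low to test. The filter also keeps genes that are high in only a few libraries. The 17 may have been kept through malat1-rich libraries, so their medians are not evidence of a rise of the family. Members rest on few reads, U2 on at most 26 in a library. U2, the branch-site RNA of the spliceosome, stood at 0, 0.571 and 0.627 CPM in controls and 4.69, 1.22 and 0 CPM in knockdown libraries. gas5, a noncoding host gene of nucleolar RNAs, stood at 149, 160 and 214 CPM against 312, 332 and 149 CPM (0.60 ± 0.30, edgeR adjusted p = 0.332). Histone genes had medians of -0.02 over 19 listed and 0.02 over 29 found by symbol. Maternal activators and zygotic transcription genes had one of 0.07 over 58 tested, and TRIM genes one of -0.09 over 76.

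Of the 9 tested muscle and somite genes, all at low levels, 0 passed. Without replicate 3, 1 passed as higher (11.1%), beside 7.72% of all genes, and 1 gene of so short a list does not set it apart. myod1, a muscle-determining transcription factor, stood at 0.699, 0.286 and 0 CPM in controls and 3.97, 2.84 and 0 CPM in knockdown libraries, and myf5 at 3.36, 4.71 and 0.94 CPM against 10.3, 12.4 and 1.19 CPM (1.37 ± 0.87, edgeR adjusted p = 0.435). Replicate 3 lay inside the control range for both. ckma, a muscle creatine kinase, stood at 0.14, 0.286 and 1.1 CPM against 0.541, 0.811 and 3.12 CPM, highest in replicate 3. The 9 tested genes of that list had library medians of 0.42, 0.35 and -0.38. The 7 tested blood and endothelial markers had -0.02, -0.38 and 0.02. Of the markers of the mother's ovary 2 were tested, both under 2 CPM in every library.

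Genes called without knockdown replicate 3 were compared with the calls of RfxCas13d at 10 pg, which share no library with them. Over all genes tested, RfxCas13d called 6.98% lower and 7.0% higher. Of the 1263 called higher, 188 were called lower with RfxCas13d (14.9% of the first list and 16.5% of the second) and 33 higher (2.61% and 2.89%). Of the 1380 called lower, 176 were called higher with RfxCas13d (12.8% and 15.4%) and 39 lower (2.83% and 3.42%). The malat1-rich libraries were knockdown libraries in the first comparison and controls in the second.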
